A study of Mus musculus with 2 samples.

Results

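The genes described here are the MYC family of transcription factors and the partners with which they share the protein MAX. They are Myc, Mycn and Mycl, the common partner Max, the repressors Mxd1, Mxi1, Mxd3 and Mxd4, and Mnt and Mga. They were chosen by name: the RefSeq accession of a non-control probe had to map to 1 of these 10 symbols. All 10 had a probe, out of 20618 genes with a named probe on the array. There were 12 probes, 2 each for Mxd1 and Mxd4 and 1 for each of the other genes, and each probe was printed as 1 spot.

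MYC proteins bind DNA as pairs with MAX. The pair recognises a short palindrome called the E-box and recruits coactivators that favour transcription of genes for growth, ribosome production and division. MXD proteins, MNT and MGA compete for the same MAX and the same sites, and MXD proteins and MNT bring in SIN3 corepressor complexes. In lymphoid precursors MYC activity drives expansion, and deregulated MYC or N-MYC is a known driver of B-cell leukaemias.

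The samples were B-ALL cells, leukaemic B-cell precursors of the mouse, which were sorted from bone marrow into a SoNar-high and a SoNar-low population. SoNar is a genetically encoded sensor whose fluorescence ratio follows the cytosolic balance of NADH and NAD+, and the comparison sets the expression of cells at the upper end of this ratio against that of cells at the lower end. For both groups the labels give bone marrow, strain C57BL and an age of 8 weeks. Total RNA of each population went on 1 Agilent 1-colour (Cy3) array. The titles call the samples N-myc-high and N-myc-low, which the labels do not explain. The lesion that started the leukaemia, how SoNar was brought into the cells, and whether RNA of several mice was pooled are not stated in the labels.

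Each population was measured on a single array, so the values have no replicate check or test, and their precision is limited by that number. The arrays were scanned on 2 different days, so scan session and group cannot be told apart. Well above background were 72.9% of the 43020 non-control spots in SoNar-high cells but 44.8% in SoNar-low cells, and 0 were saturated. The lowest processed signal that counted as detected was 19.7 in SoNar-high cells and 46.4 in SoNar-low cells, so a dim gene could be detected on the first array and missed on the second at the same signal. Of 15 markers of precursor B cells, 11 were well above background on both arrays, and their median log2 difference was -0.26. Igll1, a component of the pre-B-cell receptor, and the recombinase genes Rag1 and Rag2 were not well above background in either population. On the same list Vpreb1, Vpreb3 and Dntt were well above background in both populations, and Vpreb2 in SoNar-high cells alone. In these bulk samples fewer cells of a type and less RNA per cell cannot be told apart.

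None of the 3 MYC genes was well above background in SoNar-low cells, against 6 of their 7 partners. On the SoNar-high array 9 of the 10 genes were well above background (90.0%, against 77.5% of all named genes). On the SoNar-low array 6 were (60.0%, against 51.1%), namely Max, Mxd1, Mxd3, Mxd4, Mnt and Mga. The 3 genes detected in SoNar-high cells alone were Myc, Mycl and Mxi1 (30.0%, against 26.5% of all named genes). No member was detected in SoNar-low cells alone, and Mycn was detected on neither. Each of these shares of the 10 genes is within 2 genes of the share of all named genes.

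**Figure D1:**
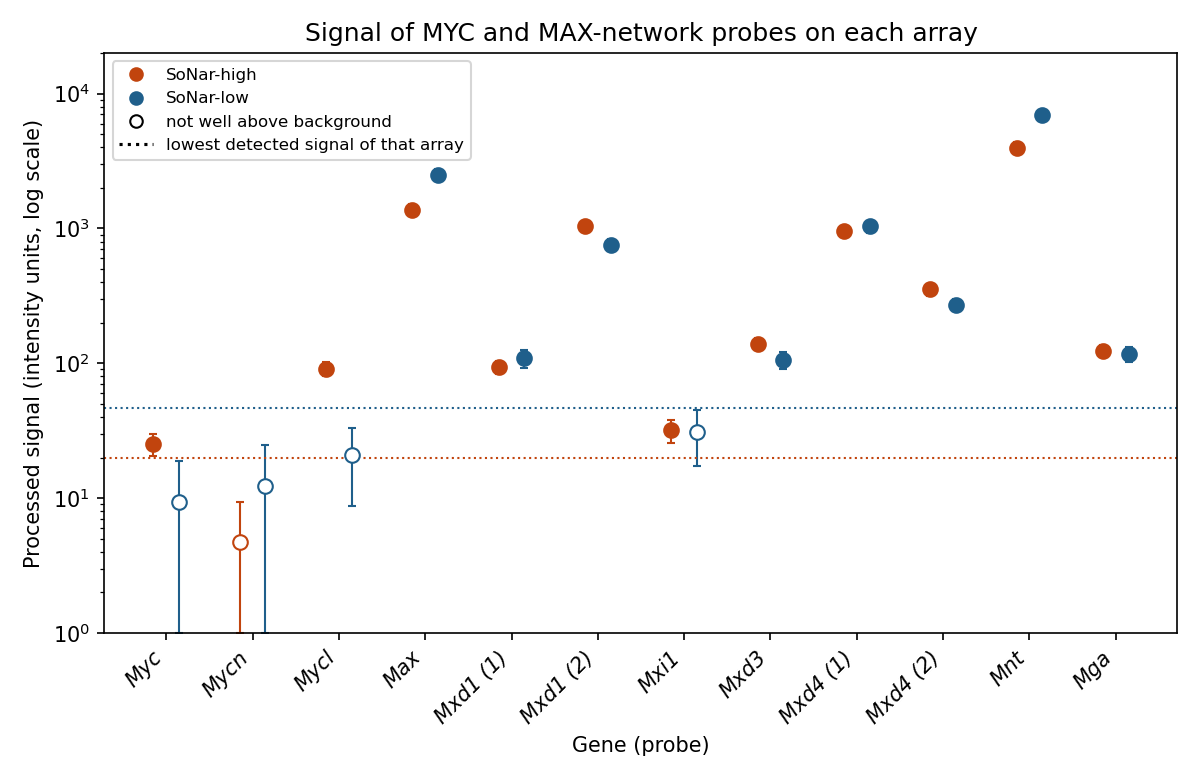
Processed signal of each probe (log scale, intensity units) in SoNar-high and SoNar-low cells, 1 spot per point. Bars are the error that the scanner software gives for the spot and are cut at 1 where they reach the axis; open points were not well above background, and dotted lines mark the lowest detected signals of 19.7 (SoNar-high) and 46.4 (SoNar-low). Max and Mnt are the bright probes with a lower SoNar-high signal, and the probes of Myc, Mycn and Mxi1 lie under the SoNar-low line on both arrays.

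Errors in the following sentences are those the scanner software assigned to a single spot (n = 1), and they do not include the spread between mice or arrays. Myc, the founding member of the family and the usual MYC gene of dividing lymphoid cells, had a processed signal of 25.1 ± 4.72 in SoNar-high cells and of 9.38 ± 9.33 in SoNar-low cells. The first was well above background and the second was not distinguishable from it. The SoNar-high signal itself lay under the lowest signal detected in SoNar-low cells, so no fold can be given, and a Myc signal of that size in SoNar-low cells would not have counted as detected. These signals come from 1 probe whose position on the transcript was not determined. Little Myc RNA and a weak probe cannot be told apart.

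Mycn, which encodes N-MYC and is best known from, but not limited to, embryonic and neural precursors, had a signal of 4.70 ± 4.68 in SoNar-high cells and of 12.3 ± 12.3 in SoNar-low cells. Neither was distinguishable from background, and no fold can be given. The sample titles name N-myc, but the position of this 1 probe on the transcript is not in the files, so whether it would detect an introduced Mycn copy, if the cells carry one, cannot be told.

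Mycl, the third and least studied family member, had a signal of 91.0 ± 10.4 in SoNar-high cells and of 20.9 ± 12.1 in SoNar-low cells. The SoNar-low value passed the software's weaker flag for a signal above background but was not well above it. Its SoNar-high level lay above the lowest level detected in SoNar-low cells, unlike those of Myc and Mxi1, so an approximate bound can be given. After scaling each array to its 75th percentile, the SoNar-high level of Mycl was 1.78-fold that lowest level. This bound is not strict, since a gene can go undetected at a higher signal. Ndrg1, at 51.7 in SoNar-low cells, was not detected there, against a lowest detected signal of 46.4. The bound was 2.06-fold with that percentile taken over doubly detected spots, 1.96-fold with no scaling, 1.22-fold with cyclic loess, 1.20-fold with quantile normalization, 1.16-fold with median scaling and 1.15-fold with normexp background correction.

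For genes measured on both arrays, levels are log2 of the processed signal minus the array's 75th percentile, and differences are SoNar-high minus SoNar-low. The median log2 difference of all 10517 genes measured on both arrays was -0.17, and their middle 50% ran from -0.47 to 0.20. In this scaling 4.87% of them were 2-fold or more higher in SoNar-high cells and 1.68% were 2-fold or more lower. Of the 6 network genes measured on both, 0 passed 2-fold upward and 0 passed it downward. Their median log2 difference was -0.05. They formed a pair with differences near -1, Max and Mnt, and 4 genes within 0.3 of 0.

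Max, which encodes the partner with which MYC, MXD, MNT and MGA proteins bind E-boxes, had a signal of 1381 ± 138 in SoNar-high cells and of 2489 ± 249 in SoNar-low cells. The SoNar-low signal was 1.80 times the SoNar-high signal, and the spot errors do not overlap. The scaled log2 difference was -0.995 with a spot error of 0.20, which is 1.99-fold lower in SoNar-high cells and just inside the 2-fold line. Of the 10517 measured genes, 182 (1.73%) had a difference as low or lower.

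Mnt, a repressor present in most dividing and resting cells that opposes MYC at shared sites, had a signal of 3953 ± 395 in SoNar-high cells and of 6907 ± 691 in SoNar-low cells. Here too the SoNar-low array was the brighter, 1.75 times as bright, with spot errors that do not overlap. The scaled log2 difference was -0.95, with a spot error of 0.20, and 241 genes (2.29%) lay as low or lower. Bright genes tended to lower values: the 4076 genes with a signal over 1000 on both arrays, a limit chosen after the values were seen, had a median log2 difference of -0.31. Among these bright genes 1.13% were at or below the value of Max and 1.59% at or below that of Mnt.

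Of the 14 alternative settings, 6 left the Max and Mnt values exactly as they were, since they alter only detection, flagged spots or the choice of probe. Under the other 8, of which 4 shift all genes by 1 amount, both differences were below 0. For Max they ranged from -1.61 with median scaling to -0.76 in the authors' deposited value table, and for Mnt from -1.56 to -0.70 under the same settings. Only median scaling took both genes past 2-fold. Each value rests on 1 probe. In the 2021 genes with 2 measured probes, the values of the pair lay a median of 0.43 apart on the log2 scale, and the gap reached 1.45 at its 95th percentile. The distance of Max and of Mnt from the median of all genes, 0.83 and 0.78 on the log2 scale, is larger than the first of these gaps and smaller than the second.

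The promoters of Max, Mnt and Mxd4 are shown because they hold the E-box that MYC-MAX and MXD-MAX pairs bind, and because Max and Mnt had the lowest differences of the network. They come from RefSeq windows on GRCm38.p6, printed 5′ to 3′ on the strand of the gene from 250 bases before the transcription start site to 10 bases after it, with the E-box, CACGTG, in capitals. The windows are chr12:76962239-76962498 on the minus strand, chr11:74830674-74830933 on the plus strand and chr5:34187701-34187960 on the minus strand.
Max: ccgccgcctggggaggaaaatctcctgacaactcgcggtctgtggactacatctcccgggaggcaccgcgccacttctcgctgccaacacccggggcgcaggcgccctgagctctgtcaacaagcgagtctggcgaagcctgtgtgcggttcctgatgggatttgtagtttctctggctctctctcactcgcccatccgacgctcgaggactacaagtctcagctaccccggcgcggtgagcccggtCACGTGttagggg
Mnt: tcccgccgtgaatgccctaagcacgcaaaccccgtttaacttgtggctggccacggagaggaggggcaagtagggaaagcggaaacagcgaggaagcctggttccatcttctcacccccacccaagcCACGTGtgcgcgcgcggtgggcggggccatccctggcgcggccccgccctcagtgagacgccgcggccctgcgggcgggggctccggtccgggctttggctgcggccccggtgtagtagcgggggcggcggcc
Mxd4: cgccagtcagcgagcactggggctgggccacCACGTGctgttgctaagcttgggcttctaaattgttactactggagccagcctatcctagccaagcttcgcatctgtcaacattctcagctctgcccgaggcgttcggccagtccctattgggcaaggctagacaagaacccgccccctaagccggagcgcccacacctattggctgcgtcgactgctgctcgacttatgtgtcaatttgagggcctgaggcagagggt

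The first base of the E-box lies 3 bases before the start site in Max, so that the motif spans the start, 123 bases before it in Mnt and 219 bases before it in Mxd4. Windows were found for 9 of the 10 genes, all but Myc, and 3 of these 9 hold the motif in the full window of 300 bases. The motif reads the same on both strands. It occurs in 7.15% of all 32851 windows, in 8.09% of 27025 genes and in 12.3% of the 8478 measured genes that have a window. The median log2 difference was -0.22 for the 1047 measured genes with the motif and -0.16 for the 7431 without it. A match describes the letters of the window and is no measurement of binding. Of the 3 genes that hold it, Max and Mnt had differences near -1 and Mxd4 one near 0.

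The MXD repressors are best known from cells that leave the cycle, where they take the place of MYC on MAX. Mxd1, which is induced in maturing myeloid and other differentiating cells, was measured by 2 probes. The brighter gave signals of 1039 ± 104 in SoNar-high cells and 752 ± 76.0 in SoNar-low cells, a log2 difference of 0.32. The dimmer gave 93.6 ± 10.5 and 109 ± 15.8, a log2 difference of -0.36. The probes thus pointed in opposite directions, and their mean was -0.02. Their gap of 0.68 was wider than that of 69.8% of the 2021 genes with 2 measured probes. Markers of granulocytes were measured in the same RNA: the 12 neutrophil markers measured on both arrays, of 14 with a probe, had a median log2 difference of 0.59, and their summed processed signal over the 14 was 25448 in SoNar-high and 18321 in SoNar-low cells. The part of such cells in the Mxd1 signals was not tested.

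Mxd4, a repressor of the same type, was also measured by 2 probes that disagreed in sign. One gave 956 ± 95.7 in SoNar-high and 1037 ± 104 in SoNar-low cells, a log2 difference of -0.26. The other gave 353 ± 35.5 and 273 ± 28.9, a log2 difference of 0.23. The mean was -0.02, and the gap of 0.49 was wider than that of 55.2% of the genes with 2 probes. For neither Mxd1 nor Mxd4 does the gene value show a difference larger than the disagreement between its probes.

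Mxd3, the family member linked to the S phase of dividing cells, had a signal of 140 ± 14.7 in SoNar-high cells and of 106 ± 16.1 in SoNar-low cells. The log2 difference of 0.25, the highest of the 6 measured genes, was smaller than its spot error of 0.27. It lay below 0 under 5 of the 14 alternatives and above 0 under the other 9.

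Mxi1, the fourth MXD-type repressor, had a signal of 32.0 ± 6.23 in SoNar-high cells and of 31.0 ± 13.6 in SoNar-low cells. It was well above background only in SoNar-high cells, although the signals were nearly equal. They differed by less than their spot errors, and no fold is given. Mga, which carries a T-box as well as a MAX-binding domain and serves as scaffold of the polycomb complex PRC1.6, had signals of 124 ± 13.1 in SoNar-high and 118 ± 15.1 in SoNar-low cells. Its log2 difference of -0.07 was smaller than the spot error of 0.24.

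The signs of Mxd1, Mxd3, Mxd4 and Mga depend on the scaling. Median scaling put all 4 below 0, at -0.63 for Mxd1, -0.36 for Mxd3, -0.63 for Mxd4 and -0.68 for Mga, because it lowers all values together. With no scaling between the arrays all 4 were above 0, at 0.12, 0.40, 0.13 and 0.08 in the same order. The gap between Max and the mean of the MXD repressors measured on both arrays does not depend on such shifts. Mnt, a repressor too, is not in that mean, and its difference of -0.95 was close to the -0.995 of Max. Max lay 1.07 below the mean difference of Mxd1, Mxd3 and Mxd4 on the log2 scale, a comparison chosen after the values were seen. The Max probe was brighter on both arrays than every probe of these MXD genes, and bright genes tended to lower values. The part of brightness in this gap was not tested. Of the 14 alternatives, 9 left this gap exactly as it was, because they shift all genes together or do not touch these probes. Under the other 5 Max was again the lower, by a log2 value of -1.10 with the brightest probe of each gene, -0.93 with normexp, -0.74 with cyclic loess, -0.68 with quantile normalization and -0.60 in the authors' deposited value table.

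**Figure D2:**
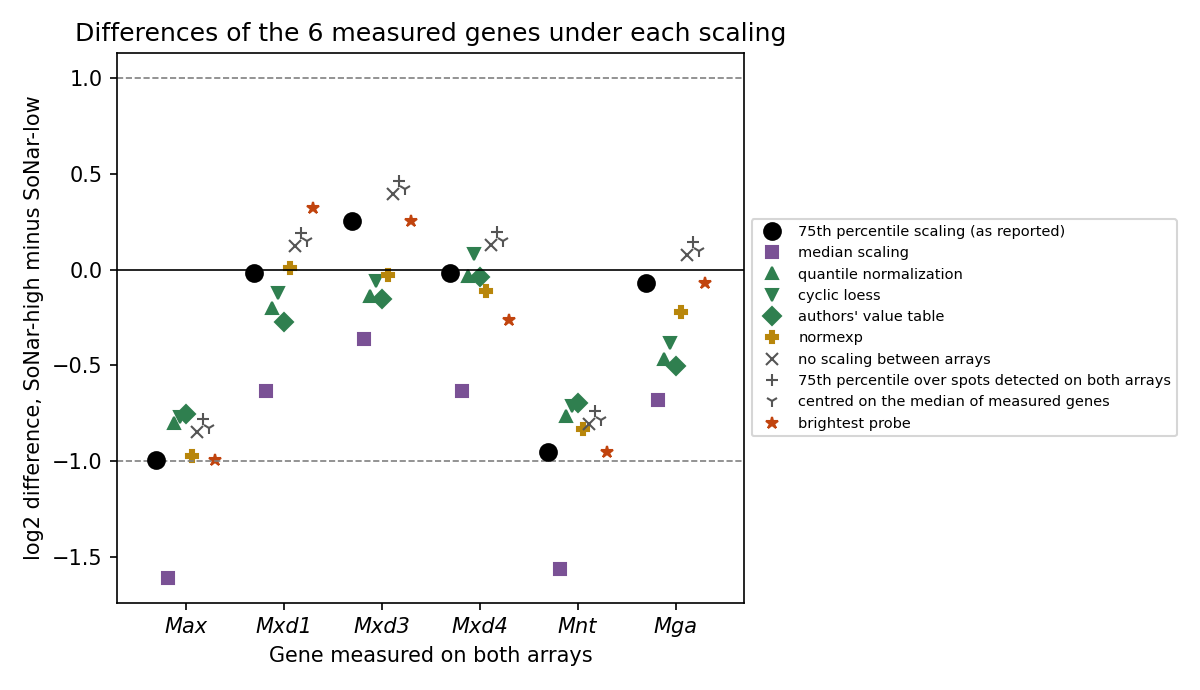
SoNar-high minus SoNar-low difference, on the log2 scale, of the 6 genes measured on both arrays under 75th percentile scaling (black) and 9 of the 14 alternatives; dashed lines mark 2-fold. Max and Mnt lie below 0 throughout and pass -1 only with median scaling, while the points of Mxd1, Mxd3, Mxd4 and Mga lie on both sides of 0.

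The wider pathway was followed in 7 gene lists with 122 distinct genes, of which 110 were measured on both arrays. Of these 2 (1.82%, against 4.87% of all measured genes) had a SoNar-high value 2-fold or more above SoNar-low, and 2 (1.82%, against 1.68%) had one 2-fold or more below. Their median log2 difference of -0.20 was close to the -0.17 of all genes.

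Genes that MYC is known to induce had differences centred slightly above the median of all genes measured on both arrays. All 40 had a probe and 39 were measured on both arrays, of which 0 were 2-fold higher and 0 were 2-fold lower. Their median was -0.09, beside -0.17 for all genes. The order depends on the filter. When detection on 1 array sufficed the list median was -0.07, beside 0.14 for all genes, and with no filter -0.07, beside 0.01. Under every other alternative the list median was the higher. Most genes of the list had signals over 1000 on both arrays, and all genes that bright had a median of -0.31. The part of brightness in this position was not tested. The highest of the 39 were Tert, the catalytic subunit of telomerase, at a log2 difference of 0.95, and Pa2g4, a growth regulator, at 0.57. Tert had signals of 667 ± 66.8 in SoNar-high and 312 ± 33.3 in SoNar-low cells. The 3 Pa2g4 probes gave log2 differences of 2.07, -0.03 and -0.34, so its mean above 0 comes from 1 probe. The lowest were Wdr12, a ribosome biogenesis factor, at -0.76, and Odc1, the enzyme that starts polyamine synthesis and a classical MYC target, at -0.67, with probe values of -0.30, -0.71 and -0.998. Ccnd2, which encodes a D cyclin, had a signal of 44.2 in SoNar-high cells, where it was well above background, and of 21.1 in SoNar-low cells, where it was not. Its SoNar-high signal lay under 46.4, the lowest signal detected in SoNar-low cells, so no fold is given.

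Of the 14 genes that MYC is known to repress, 7 lay below the median of all genes, 1 lay above it, and 6 were detected in SoNar-high cells alone (42.9%, against 26.5% of all named genes). All 14 were detected in SoNar-high cells and 8 on both arrays, and the median log2 difference of these 8 was -0.57. The lowest were Hbp1, a repressor of cell cycle genes, at -0.92, with 2 probes at -0.93 and -0.91, and the antiproliferative gene Btg1 at -0.66, with probes at -0.93 and -0.40. Among the highest was Btg2, a relative of Btg1, at -0.33. The 1 gene above the median was the stress gene Gadd45a, which was 2-fold higher or more with a log2 difference of 1.17 from signals of 512 ± 51.4 and 206 ± 23.8. The 6 detected in SoNar-high cells alone were Cdkn1a, Cdkn2b, Gas1, Ndrg1, Ndrg2 and Ccng2, and all 6 had the higher processed signal there. By ratio they ran from 33.5 against 18.8 for Ndrg2, an NDRG family gene, to 21.4 against 20.6 for the growth arrest gene Gas1. Detection in SoNar-high cells alone itself favours a higher signal there, so this direction is no separate result. Only Ndrg1, at 64.5, had a SoNar-high signal over 46.4, the lowest signal detected in SoNar-low cells. These 6 genes enter no median above. When detection on 1 array sufficed they did enter it, and the list median was -0.26, beside 0.14 for all genes under the same rule. Median scaling gave the lowest list median of the 14 alternatives, -1.18, beside -0.78 for all genes.

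MLX is a relative of MAX that pairs with MNT, with some MXD proteins and with the glucose-sensing MONDO proteins encoded by Mlxip and Mlxipl. Of 5 genes of this branch 4 were measured on both arrays and 0 passed 2-fold. Mlxipl had a log2 difference of 0.83, with probes at 1.43 and 0.22, and Mlxip one of 0.58, with probes at 0.998 and 0.15. Mlx was at -0.20, and Txnip, a target of these factors that restrains glucose uptake, at -0.33, with probes at -0.60 and -0.06. Arrdc4, another target, was detected in SoNar-high cells alone. Its signal there, 27.7, lay under the lowest signal detected in SoNar-low cells, 46.4. The median of the 4 was 0.19, with a range from -0.43 to 0.40 over the alternatives.

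The corepressors that MXD proteins and MNT recruit were all measured. Of 17 genes 1 was 2-fold higher, 0 were 2-fold lower, and the median was -0.21. The 1 higher gene was Arid4b, a SIN3 subunit, at 2.26 from 1 probe with signals of 489 ± 49.1 and 92.1 ± 13.7. Ncor1, a corepressor scaffold, followed at 0.45, where 1 of its 3 probes was at 1.07 and the others at 0.17 and 0.11. The lowest were Sin3a, a scaffold of the complex, at -0.57, and the deacetylase Hdac3 at -0.48.

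MYC cofactors, among them the TRRAP, TIP60 and p400 proteins that acetylate and remodel chromatin, gave 13 measured genes of 14 with a probe, 0 past 2-fold in either direction and a median of -0.19. Ep300, a histone acetyltransferase, was the highest at 0.78 and Ep400 next at 0.48. Dmap1 (-0.76) and Ruvbl1 (-0.65), subunits of the same remodelling complexes, were the lowest. Zbtb17, which encodes the MYC-binding factor MIZ-1, was not well above background in either population.

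Genes that set the stability of MYC proteins had a median of -0.23 over 16 measured genes. Of these 0 were 2-fold higher and 1 was 2-fold lower, the ubiquitin ligase gene Trim32, at -1.01 from signals of 626 ± 62.7 and 1140 ± 114. Ppp2r5a, a regulatory subunit of the phosphatase PP2A, was next at -0.87. The deubiquitinase gene Usp22 was the highest at 0.63. Usp7, another deubiquitinase gene, stood at 0.05 as the mean of probes at -0.81 and 0.91.

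The partners of Mga in its polycomb complex were all measured, 14 of 14, with a median of -0.30, 0 genes 2-fold higher and 1 gene 2-fold lower. That gene was Ehmt2, which encodes the histone methyltransferase G9a, at -1.06 from signals of 8661 ± 866 and 16363 ± 1636. Yaf2, an adaptor of the complex, followed at -0.95 with both probes low, at -0.90 and -1.01. Ring1, a ubiquitin ligase of polycomb complexes, was the highest at 0.50, and E2f6, a repressive E2F protein, was at 0.23.

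**Figure D3:**
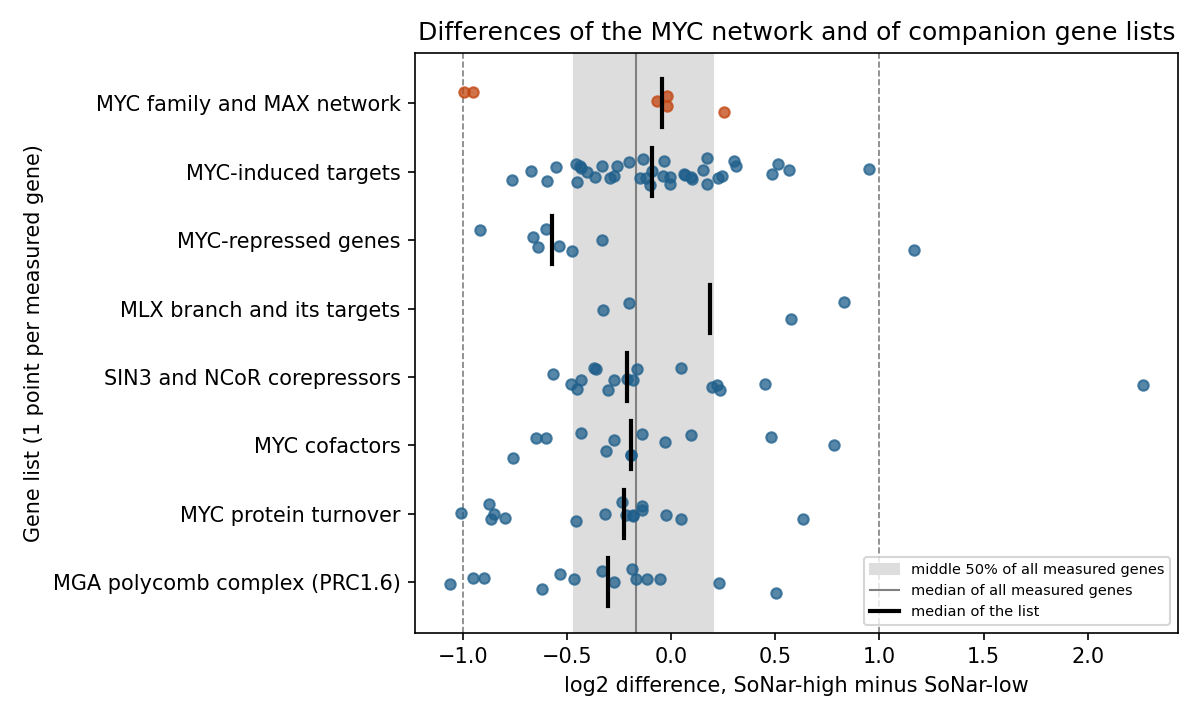
SoNar-high minus SoNar-low difference, on the log2 scale, of each gene measured on both arrays in the MYC and MAX network (orange) and in the 7 lists of companion genes (blue); the vertical position within a row is arbitrary. Black bars are list medians, the grey band is the middle 50% of all 10517 measured genes (-0.47 to 0.20), and dashed lines mark 2-fold. The band is the spread of single genes and not of list medians; the medians lie between -0.57 and 0.19, and genes detected on 1 array alone, 6 of 14 in the MYC-repressed list, are not drawn.

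Markers of other cell types that bone marrow holds were also summed. Beside the neutrophil list, the median log2 difference was 1.07 over 4 measured erythroid genes, 0.32 over 4 T cell genes, 1.12 over 3 natural killer genes, -0.22 over 4 dendritic genes and 0.69 over 5 stromal and endothelial genes. The monocyte list had 1 measured gene, at 1.25, and the megakaryocyte list had 0. For 4 of these lists the summed signal ran against the median, because 1 or 2 bright genes differed the other way. The erythroid sum was 15685 in SoNar-high and 23443 in SoNar-low cells, with Hemgn at a log2 difference of -0.83. The T cell sum was 2792 against 3327, with Lck at -0.94 and Cd2 at -0.63. The stromal and endothelial sum was 8869 against 13138, with Alpl at -0.83. The dendritic sum was 13329 against 8260, with Siglech at 0.96. Over the lists of other cell types summed processed signals went from 98.3 (megakaryocyte) to 25448 (neutrophil) in SoNar-high cells and from 85.3 (megakaryocyte) to 23443 (erythroid) in SoNar-low cells. The part of these cells in the values of Max, Mnt and Mycl was not tested.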

How the data were processed

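Total RNA from SoNar-high and SoNar-low leukaemic cells was hybridised to 1 one-colour array each. Spot intensity was deposited as Agilent Feature Extraction 11.0.1.1 wrote it, with background subtracted and trends across the array removed, per the file headers. The submitters' processing notes give version 9.1 instead. A table of log2 values by the authors, with the same quantiles in both columns and no stated steps behind them, served as an alternative. Array annotation is mm9, per the file headers, and names and promoters come from RefSeq on GRCm38.p6.

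Levels are log2 of processed signal after subtraction of the 75th percentile that the non-control spots of its array reach. The 685 spots flagged as non-uniform or population outliers on either array were removed, 0 of them of network genes, leaving 39085 probes, 27115 of them named by RefSeq accession. A probe counted as detected when over 50% of its spots carried the software's well-above-background flag, and a gene's value is the mean over probes detected on both arrays. For a probe detected in 1 population, the bound compares its level there with the lowest level detected in the other, or with its own level there where that is higher. No p-value was computed. The text names all 10 network genes and, in each companion list with at least 4 measured genes, the 2 highest and 2 lowest; others named were chosen after their values were seen. The network genes, the 7 companion lists and the 9 marker lists were chosen with earlier results of these data known. Scripts were tested on simulated data. Python 3.11.15, numpy 2.4.6, pandas 2.3.3, matplotlib 3.10.9, R 4.3.3 and limma 3.58.1 were used.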

Additional observations from a re-analysis of the deposited data

How the results depend on the processing

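No paired analysis was possible because SoNar-high and SoNar-low each rest on a single array, which also means that none could be left out. The 14 alternatives run were chosen with earlier results of these data known; naming probes by a gene name column was not run because the scanner files have no such column. Against 0 network genes at least 2-fold higher, the count was 2 (Myc and Mycl) when 1 array sufficed for detection and again 2 with no filter. Of all genes, 3203 of 15984 were at least 2-fold higher in the first of these settings and 2775 of 20618 in the second. Against 0 network genes lower, the count was 2 (Max and Mnt) with median scaling and 1 (Mycn) with no filter. With no filter, 1751 of all 20618 genes were at least 2-fold lower. The extra genes in the unfiltered settings were not well above background on 1 or both arrays. Of the companion genes, 2 were 2-fold higher as reported, against 1 with median scaling, 1 with normexp, 1 in the authors' deposited table, 4 when the 75th percentile was taken over doubly detected spots and 5 with outlier spots kept. The counts over all genes were 139, 262, 358, 806 and 543 in the same order. Against 2 companion genes lower, there were 35 after median scaling, 1 after quantile normalization, 1 after cyclic loess, and 0 with that percentile, 0 with no scaling, 0 with centring on the median and 0 with normexp. The counts over all genes were here 3306, 350, 300, 67, 79, 70 and 60. Median scaling, that percentile, no scaling and centring shift all genes together; for the other settings the cause was not tested. Across all genes, the 177 lower genes became 3306 and the 512 higher genes 139 with median scaling. The number of detected network genes was 7 on the SoNar-high and 6 on the SoNar-low array when a signal over 2 times the lowest detected one was demanded.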
